A study of Mus musculus with 9 samples.

Results

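The CC chemokines are small secreted proteins with adjacent cysteines near the amino terminus, and their receptors are G protein-coupled receptors on leukocytes. This section describes 9 of their genes, 7 ligands (Ccl2, Ccl7, Ccl12, Ccl3, Ccl4, Ccl6 and Ccl9) and 2 receptors (Ccr1 and Ccr2). They were chosen by symbol among the 53465 genes of the deposited count table. Each symbol stood on 1 line of that table. All 9 were among the 11950 genes tested, those above 1 CPM (counts scaled to the library's total) in at least 3 libraries. Ccl12 passed that filter only through the untreated libraries.

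RNA was sequenced from bone marrow derived macrophages (BMDMs), grown from the marrow of male wild-type C57BL/6 mice (C57bl6/J in the study's methods) in medium with CSF1, the macrophage growth factor, at 50 ng/ml. Of 9 libraries, 3 came from untreated cells (UNX), 3 from cells given medium conditioned by pulmonary artery adventitial fibroblasts of control calves (CO-CM), and 3 from cells given medium conditioned by such fibroblasts of calves with pulmonary hypertension induced by hypoxia (PH-CM). The groups share genotype, sex and growth medium, and the comparison asks how macrophages respond to fibroblasts of normal and diseased vessel walls. Each conditioned medium was a pool from several fibroblast populations, so the 3 replicates of a group repeat the macrophage experiment and not the fibroblast donors.

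The design has limits as a model. The media were bovine and the responding cells were murine. The labels give the exposure as 16 h in one field and 24 h in another, and the study's methods give a time between these. The conditioned media were supplemented with serum, the sources used here name no added CSF1 in them, and UNX cells were not given medium from any other cell, so what fibroblasts secreted and what differed in the medium itself cannot be told apart in either comparison with UNX. The comparison of PH-CM with CO-CM is between conditioned media.

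In textbook terms, Ccl2, Ccl7 and Ccl12 are monocyte chemoattractant proteins that act on CCR2, the receptor by which inflammatory monocytes leave the marrow and enter tissue. Ccl3 and Ccl4 are the macrophage inflammatory proteins 1 alpha and beta, and Ccl3 acts on CCR1. Ccl6 and Ccl9 are rodent ligands of CCR1 that myeloid cells make without an inflammatory stimulus.

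The ligand genes lie in 2 blocks of chromosome 11 (GRCm38, GENCODE annotation). Ccl2 (ENSMUSG00000035385, chr11:82035571-82037453), Ccl7 (ENSMUSG00000035373, chr11:82045712-82047525) and Ccl12 (ENSMUSG00000035352, chr11:82101845-82103400) are on the plus strand. Some 1469.5 kb away, Ccl9 (ENSMUSG00000019122, chr11:83572919-83578636), Ccl6 (ENSMUSG00000018927, chr11:83587882-83593087) and Ccl3 (ENSMUSG00000000982, chr11:83647844-83649355) are on the minus strand and Ccl4 (ENSMUSG00000018930, chr11:83662584-83664683) on the plus strand. Both receptor genes are on chromosome 9, Ccr1 (ENSMUSG00000025804, chr9:123962124-123968692) on the minus strand and Ccr2 (ENSMUSG00000049103, chr9:124101950-124113557) on the plus strand.

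The coding sequence around the paired cysteines is shown for the 7 ligands, because it defines the family and shows which members resemble each other. Each window was read from the GENCODE transcript of the gene on its coding strand, within the gene coordinates given above, and holds the 2 cysteine codons in capitals with 24 bases on each side.
Ccl2: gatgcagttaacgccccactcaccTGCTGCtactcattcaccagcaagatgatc
Ccl7: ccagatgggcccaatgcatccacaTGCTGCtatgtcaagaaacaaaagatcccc
Ccl12: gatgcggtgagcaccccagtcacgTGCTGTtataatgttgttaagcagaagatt
Ccl3: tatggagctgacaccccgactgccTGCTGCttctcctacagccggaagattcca
Ccl4: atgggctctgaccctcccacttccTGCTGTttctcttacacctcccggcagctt
Ccl6: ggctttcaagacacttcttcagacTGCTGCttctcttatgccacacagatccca
Ccl9: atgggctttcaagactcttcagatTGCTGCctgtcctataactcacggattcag
Identity over the whole coding sequence was taken as the share of alignment columns, with gaps counted as differences. The closest pairs of ligands by this measure were Ccl3 with Ccl4 at 68.1%, Ccl6 with Ccl9 at 64.6% and Ccl7 with Ccl12 at 63.2%. Ccl2 has the longest coding sequence, 444 bases, so gaps lower its shares, which were 48.4% with Ccl12 and 46.2% with Ccl7. How close Ccl2 is to them cannot be read from this order. By the same measure the coding sequences of Ccr1 and Ccr2 were 61.2% identical. None of the 75-base stretches of the transcripts of the 7 ligands or of Ccr1 occurred in a transcript of another gene.

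The libraries held between 62017933 and 84314201 reads assigned to genes, and every library of a group differed from the others of that group by more than counting error. Macrophage markers were high throughout: all 7 passed the filter, and their summed level was 4963 to 5057 CPM in UNX, 6226 to 6933 in CO-CM and 6975 to 7795 in PH-CM libraries. Of markers of other cells, those of lymphocytes summed to at most 0.18 CPM. The 8 neutrophil markers summed to 2.11 to 3.46 CPM in UNX, 3.25 to 5.05 in CO-CM and 2.71 to 4.02 in PH-CM libraries; only S100a8 passed the filter, at 0.901 to 1.00 CPM in UNX, 2.21 to 2.81 in CO-CM and 2.23 to 2.91 in PH-CM, and Ly6g had no read. The 4 markers of mast cells, basophils and eosinophils summed to at most 0.66 CPM, with Mcpt8 at 0.38 to 0.628 CPM in PH-CM and at most 0.159 elsewhere. The 6 monocyte markers summed to 7.19 to 8.18 CPM in UNX, 7.13 to 8.54 in CO-CM and 120 to 164 in PH-CM libraries. Nearly all of the PH-CM sum was Vcan, at 114 to 155 CPM, while Ly6c2, which defines the inflammatory monocyte, stayed between 0.0281 and 0.19 CPM over all libraries. The 6 fibroblast markers summed to 194 to 245 CPM in UNX, 262 to 314 in CO-CM and 244 to 331 in PH-CM libraries, with Col1a1 the highest and Lum near 0. Of the 6 dendritic cell markers only Itgax passed the filter, at 8.52 to 33.5 CPM in UNX, 19.2 to 63.8 in CO-CM and 5.13 to 7.64 in PH-CM libraries. The part these differences have in the chemokine values was not tested. In these bulk libraries fewer cells that express a gene and less RNA per cell cannot be told apart.

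Against UNX, CO-CM lowered 8 of the 9 genes, Ccr1 among them only just inside the threshold, and raised none. PH-CM lowered 5 and raised 3, namely Ccl6, Ccl9 and Ccr1. Calls required an edgeR false discovery rate (FDR, Benjamini-Hochberg over all genes tested) no higher than 0.05, with a fold change of 1.2 or more. By the same rule 28.0% of all genes were called higher and 28.9% lower with CO-CM, and 31.3% higher and 31.7% lower with PH-CM. Both comparisons use the same UNX libraries. These calls and shares come from the fit without the replicate number. With that number as a block, Ccr2 was also called higher with CO-CM (log2 0.35, edgeR FDR = 0.0135). Ccr1 was then further inside the threshold for CO-CM (edgeR FDR = 0.000268). Ccl12, which passed the filter through UNX alone, had to differ from UNX, and the members were chosen with earlier results of these data known. The counts therefore describe these genes and are no test of them as a set against all genes. Between the media, 3 of the 9 genes were higher with PH-CM and 2 were lower, where 12.2% of all genes were called higher and 15.0% lower. The median log2 fold change of the 9 genes was -2.09 for CO-CM against UNX, -2.99 for PH-CM against UNX and 0.39 for PH-CM against CO-CM, and over all genes tested it was below 0.01 in size in each.

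**Figure D1:**
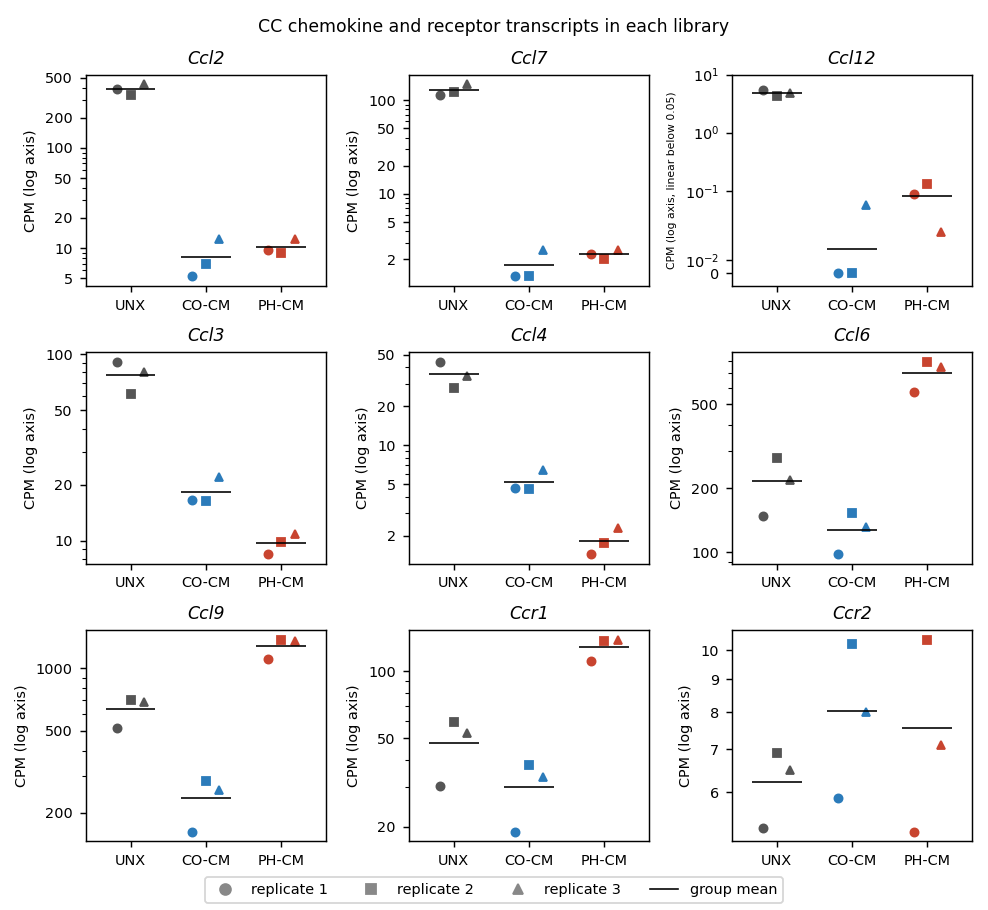
CPM (log axis) of each gene in the 9 libraries; symbols mark the replicate number and the line is the mean of 3 libraries. Ccl2, Ccl7, Ccl12, Ccl3 and Ccl4 are highest in UNX, while Ccl6, Ccl9 and Ccr1 are highest in PH-CM and Ccr2 overlaps in all groups; the axis of Ccl12 is linear below 0.05 because 2 libraries are at 0.

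Ccl2 encodes monocyte chemoattractant protein 1, the main attractant of monocytes that carry CCR2. It measured 383, 335 and 433 CPM in UNX replicates 1 to 3, 5.24, 7.0 and 12.3 CPM in CO-CM, and 9.51, 8.90 and 12.4 CPM in PH-CM. Every library with either medium lay far under every UNX library, and the ranges of the 2 media overlapped. The log2 fold change was -5.55 ± 0.28 (SE, n = 3 per group, edgeR FDR = 6.85e-08) for CO-CM, a level 46.7-fold lower, and -5.22 ± 0.28 (edgeR FDR = 5.49e-08) for PH-CM, 37.4-fold lower. Between the media the log2 difference was 0.32, with a 95% confidence interval from -0.26 to 0.90 (edgeR FDR = 0.36).

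Ccl7, monocyte chemoattractant protein 3, lies 8.3 kb from Ccl2 with no annotated gene between them. Its level was 113, 123 and 149 CPM in UNX, 1.32, 1.32 and 2.53 CPM in CO-CM, and 2.26, 2.03 and 2.50 CPM in PH-CM. The fall was as clear of the replicate spread as that of Ccl2, at -6.21 ± 0.21 for CO-CM (SE, n = 3, edgeR FDR = 7.89e-09) and -5.82 ± 0.21 for PH-CM (edgeR FDR = 3.76e-09). Ranked by p-value, Ccl7 stood 49th of the 11950 genes for CO-CM and 157th for PH-CM. The difference between the media was 0.39 (95% interval -0.15 to 0.93, edgeR FDR = 0.239). With the replicate number as a block in the fit, it was 0.40 and passed the threshold (edgeR FDR = 0.0435). Within the same replicate number PH-CM was higher than CO-CM in 2 of 3 pairs.

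Ccl12, monocyte chemoattractant protein 5, was the least abundant ligand by RPKM (CPM per kilobase of exon) in every group. It had 358, 324 and 412 reads in UNX, 0, 0 and 4 reads in CO-CM, and 6, 8 and 2 reads in PH-CM libraries. The UNX libraries were at 5.52, 4.29 and 4.8 CPM, and no library with a medium exceeded 0.129 CPM. In the libraries at 0, a count of 0 allows up to 3 reads, or 0.0438 and 0.0448 CPM. By the summed reads, UNX was higher than CO-CM by 249.5-fold (exact 95% interval 97.2 to 917, counting error only) and higher than PH-CM by 58.2-fold (35.7 to 102). All Ccl12 counts were even, and if mates were counted singly the UNX and CO-CM reads are 547 and 2 fragments, which widens the first interval to 68.7 to 2066 and the second to 29.3 to 136, and the floor would be wider too. The fitted log2 fold changes were -7.85 for CO-CM (edgeR FDR = 2.51e-07) and -5.84 for PH-CM (edgeR FDR = 3.18e-07); at so few reads their size depends on the prior count, and a gene that passes the filter through UNX alone had to differ. PH-CM held 16 reads and CO-CM 4, a log2 difference of 2.00 that did not pass (edgeR FDR = 0.107) and passed in 4 of 15 alternatives.

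Whether the differences between the media in this trio passed depended in part on CO-CM replicate 3, the highest of its group for each of the 3 genes. With that library kept, Ccl7 also passed with the replicate block and Ccl12 in some other alternatives, but Ccl2 in none. Replicate 3 was also the highest library of UNX and of PH-CM for Ccl2 and Ccl7, and within that number PH-CM was at 1.01 times CO-CM for Ccl2 and 0.988 times for Ccl7. Without CO-CM replicate 3, which leaves PH-CM replicate 3 without its partner, all 3 were called higher with PH-CM than with CO-CM, Ccl2 by 0.75 on the log2 scale (edgeR FDR = 0.0131), Ccl7 by 0.78 (edgeR FDR = 0.00973) and Ccl12 by 5.56 (edgeR FDR = 0.0176), the last against 2 libraries with no read, so its size has no meaning.

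Of the CCR2 ligands, which fell with both media, only Ccl12 had a promoter entry, and the promoters of Ccl2 and Ccl7 were not searched. The Ccl12 window is the 250 bases before the RefSeq transcription start (GRCm38.p6, plus strand, chr11:82101595-82101844).
Ccl12: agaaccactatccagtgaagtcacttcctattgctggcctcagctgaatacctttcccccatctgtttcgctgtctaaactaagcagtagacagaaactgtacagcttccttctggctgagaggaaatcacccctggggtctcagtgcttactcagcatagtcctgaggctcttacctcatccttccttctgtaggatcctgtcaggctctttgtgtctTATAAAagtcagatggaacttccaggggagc
Capitals mark a TATA box, TATAAA, from 31 to 26 bases before the start. TATAAA was found on either strand in 12.4% of the 32851 RefSeq promoter windows of the same length. The other motifs searched were not found in the Ccl12 window: GGG and CC with 5 bases of any kind between them for NF-kB, TGANTCA for AP-1, TTCNNNGAA for STAT factors and ACGTG for hypoxia-inducible factors.

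Ccl3, macrophage inflammatory protein 1 alpha, fell with both media and fell further with PH-CM. Its level was 91, 61.4 and 80.4 CPM in UNX, 16.5, 16.4 and 21.9 CPM in CO-CM, and 8.49, 9.90 and 10.9 CPM in PH-CM. The 3 groups did not overlap. The log2 fold change was -2.09 ± 0.16 for CO-CM (SE, n = 3, edgeR FDR = 1.2e-06) and -2.99 ± 0.17 for PH-CM (edgeR FDR = 8.53e-08). The direct difference between the media was -0.90 ± 0.16 (edgeR FDR = 0.00162), and PH-CM was lower in 3 of 3 pairs of the same number.

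Ccl4, macrophage inflammatory protein 1 beta, is the neighbour of Ccl3 at 13.2 kb, on the opposite strand. It measured 44.1, 27.9 and 34.3 CPM in UNX, 4.67, 4.58 and 6.4 CPM in CO-CM, and 1.44, 1.75 and 2.31 CPM in PH-CM. These groups did not overlap either, and the order of the groups was that of Ccl3. The fold changes were larger than those of Ccl3 in size: -2.76 ± 0.20 for CO-CM (SE, n = 3, edgeR FDR = 8.04e-07), -4.27 ± 0.22 for PH-CM (edgeR FDR = 5.2e-08) and -1.51 ± 0.23 for PH-CM against CO-CM (edgeR FDR = 0.000528). The ratio of Ccl3 to Ccl4 by RPKM was therefore 1.90 ± 0.12 (SD, n = 3) in UNX, 3.02 ± 0.07 in CO-CM and 4.67 ± 0.53 in PH-CM, with no overlap between the groups.

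**Figure D2:**
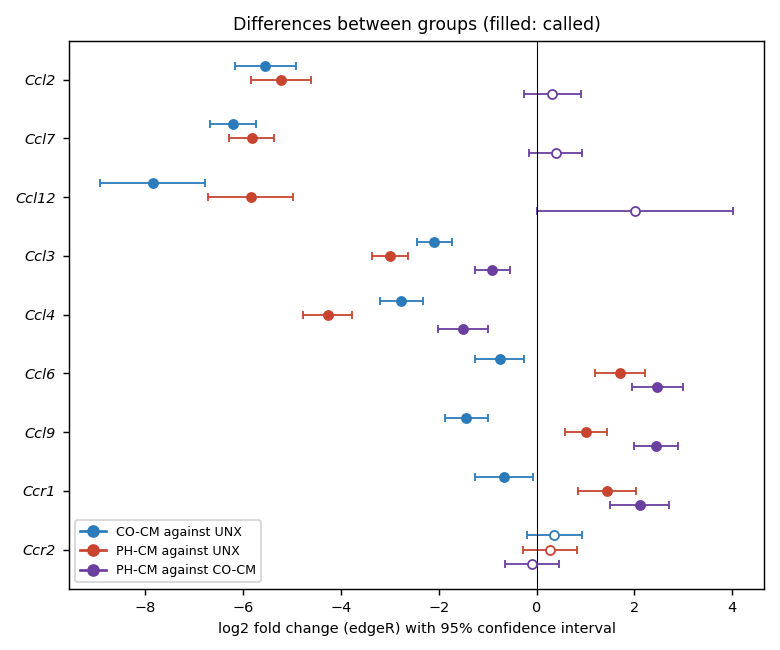
Log2 fold change of each gene in the 3 comparisons, with the 95% confidence interval of the edgeR fit to 3 libraries per group; filled points passed both thresholds (FDR 0.05, fold change 1.2). Ccl6, Ccl9 and Ccr1 lie left of 0 for CO-CM against UNX and right of 0 for PH-CM against UNX, and no interval of Ccr2 leaves 0.

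Ccl6 and Ccl9 moved in opposite directions with the 2 media. Ccl6 encodes a chemokine that macrophages secrete without stimulation. It measured 148, 279 and 220 CPM in UNX, 97.9, 154 and 132 CPM in CO-CM, and 571, 794 and 752 CPM in PH-CM. PH-CM stood above both other groups in every library, whereas CO-CM and UNX overlapped by 1 library each, CO-CM replicate 2 and UNX replicate 1. The log2 fold change was -0.76 ± 0.23 for CO-CM (SE, n = 3, edgeR FDR = 0.0118), 1.71 ± 0.23 for PH-CM (edgeR FDR = 5.75e-05) and 2.47 ± 0.24 for PH-CM against CO-CM (edgeR FDR = 2.51e-05), a level 5.52-fold higher. Compared within the same replicate number, where the overlap does not enter, CO-CM was at 0.55 to 0.659 times UNX, lower in 3 of 3 pairs.

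Ccl9, macrophage inflammatory protein 1 gamma, is the next gene to Ccl6, 9.2 kb away on the same strand, and had the highest mean RPKM of the 9 transcripts in both media. Its level was 516, 700 and 689 CPM in UNX, 162, 285 and 258 CPM in CO-CM, and 1104, 1375 and 1358 CPM in PH-CM. The 3 groups did not overlap. Ccl9 fell by 1.43 on the log2 scale with CO-CM (SE 0.19, n = 3, edgeR FDR = 7.91e-05) and rose by 1.01 with PH-CM (SE 0.19, edgeR FDR = 0.000723). The difference between the media, 2.44 ± 0.20 (edgeR FDR = 9.58e-06), was nearly that of Ccl6. The RPKM ratio of Ccl9 to Ccl6 was 1.79 ± 0.29 (SD, n = 3) in UNX, and 1.08 ± 0.09 in CO-CM and 1.08 ± 0.06 in PH-CM. The ratios of the 2 media overlapped, and all lay below those of UNX.

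Some annotated genes overlap members on the opposite strand, and the counting options listed in the study's methods name none for strand, without which featureCounts ignores it. E230016K23Rik overlaps Ccl6 and had 14 to 66 reads per library, against 6694 to 49321 for Ccl6. Gm17268, which overlaps Ccl2, had 0 reads in all libraries.

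Ccr1 encodes a receptor for Ccl3, Ccl6 and Ccl9. Its transcript measured 30.3, 59.0 and 53.0 CPM in UNX, 18.9, 37.8 and 33.3 CPM in CO-CM, and 112, 137 and 139 CPM in PH-CM. All PH-CM libraries were above all others, and CO-CM and UNX overlapped. The log2 fold change was 1.44 ± 0.27 for PH-CM against UNX (SE, n = 3, edgeR FDR = 0.000579) and 2.11 ± 0.27 against CO-CM (edgeR FDR = 0.000197). With CO-CM the change was -0.66 ± 0.27 (edgeR FDR = 0.0464), a call lost in 10 of 19 alternative analyses (edgeR FDR up to 0.152 without UNX replicate 2; DESeq2 adjusted p = 0.0576). The spread followed the replicate numbers: within a number CO-CM was at 0.624 to 0.64 times UNX in all 3 pairs, and with the replicate number as a block the change was -0.66 (edgeR FDR = 0.000268).

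Ccr2, a receptor for Ccl2, Ccl7 and Ccl12 and a mark of inflammatory monocytes, was low in every library. It measured 5.28, 6.92 and 6.5 CPM in UNX, 5.88, 10.2 and 8.01 CPM in CO-CM, and 5.21, 10.4 and 7.12 CPM in PH-CM. The ranges of all 3 groups overlapped, and no comparison passed the test. The log2 differences were 0.36 for CO-CM against UNX (95% interval -0.19 to 0.92, edgeR FDR = 0.216), 0.28 for PH-CM against UNX (-0.28 to 0.84, edgeR FDR = 0.336) and -0.09 for PH-CM against CO-CM (-0.64 to 0.47, edgeR FDR = 0.811). These intervals leave room for a rise of 0.92 but not for changes the size of those of the CCR2 ligands. With the replicate number as a block, CO-CM was called higher than UNX by 0.35 (edgeR FDR = 0.0135), and it was higher in 3 of 3 pairs of the same number, by 1.11 to 1.48 times. PH-CM against UNX was 0.25 in that fit (edgeR FDR = 0.0581). By qPCR, the study reported Ccr2 significantly higher in mouse BMDMs with PH-CM than in untreated ones. Why that measure and the read counts differ was not tested.

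The spread within groups followed the replicate number. Replicate 1 was the lowest library of all 3 groups for Ccl6, Ccl9, Ccr1 and Ccr2, and for the receptors Ccr3 and Ccrl2 as well. For Ccl2, Ccl12, Ccl3 and Ccl4 it was the lowest in at most 1 group without a tie, and for Ccl7 in 2.

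Promoter windows of the genes that rose together with PH-CM, Ccl6, Ccl9 and Ccr1, are shown next, each the 250 bases before the RefSeq transcription start on the minus strand of GRCm38.p6, with any match to the 5 motifs in capitals. They are chr11:83593088-83593337 for Ccl6, chr11:83578637-83578886 for Ccl9 and chr9:123968693-123968942 for Ccr1.
Ccl6: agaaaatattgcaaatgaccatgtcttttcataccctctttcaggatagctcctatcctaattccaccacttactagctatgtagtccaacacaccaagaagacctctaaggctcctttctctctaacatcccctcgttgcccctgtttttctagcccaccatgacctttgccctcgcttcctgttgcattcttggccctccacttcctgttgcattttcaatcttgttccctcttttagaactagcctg
Ccl9: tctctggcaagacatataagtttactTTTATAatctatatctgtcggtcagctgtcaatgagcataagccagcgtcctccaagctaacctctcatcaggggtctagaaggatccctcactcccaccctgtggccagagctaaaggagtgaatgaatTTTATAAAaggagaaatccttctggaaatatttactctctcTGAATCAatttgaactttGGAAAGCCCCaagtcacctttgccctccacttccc
Ccr1: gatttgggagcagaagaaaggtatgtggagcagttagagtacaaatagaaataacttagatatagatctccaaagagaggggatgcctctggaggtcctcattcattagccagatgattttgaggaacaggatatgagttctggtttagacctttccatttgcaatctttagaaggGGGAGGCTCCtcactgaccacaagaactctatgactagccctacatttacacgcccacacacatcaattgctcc
The Ccl9 window held an AP-1 match from 53 to 47 bases and an NF-kB match, on the reverse strand, from 35 to 26 bases before the start. It also held TATA matches, 2 of which overlap on opposite strands. The Ccr1 window held an NF-kB match alone and the Ccl6 window none, so the 3 windows shared no motif of those searched. Of all windows, 45.8% held the NF-kB letters, 6.75% those of AP-1, 7.02% those of STAT factors and 16.6% those of hypoxia-inducible factors. The windows of Ccl3 and Ccr2, not shown, were also searched and held no match to any of these motifs.

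The amount and the mix of ligand transcript are described here without a test. The RPKM of the 7 ligands summed to 990 ± 80.8 (SD, n = 3) in UNX, 189 ± 40.7 in CO-CM and 841 ± 118 in PH-CM. CO-CM libraries, at 142 to 215, were below all others, and PH-CM, at 705 to 920, and UNX, at 926 to 1081, lay next to each other. In UNX the CCR2 ligands Ccl2, Ccl7 and Ccl12 held 51.1% ± 3.28 (SD, n = 3) of the sum, but 4.90% ± 1.61 in CO-CM and 1.44% ± 0.25 in PH-CM. Ccl3 and Ccl4 held 15.8% ± 3.82 in UNX and 17.1% ± 3.57 in CO-CM, which overlapped, and 1.85% ± 0.14 in PH-CM. Ccl6 and Ccl9 held 33.2% ± 6.43 in UNX, 78.0% ± 4.56 in CO-CM and 96.7% ± 0.39 in PH-CM. The higher share of this pair in CO-CM went with a lower level of both genes, and in PH-CM with a higher one.

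**Figure D3:**
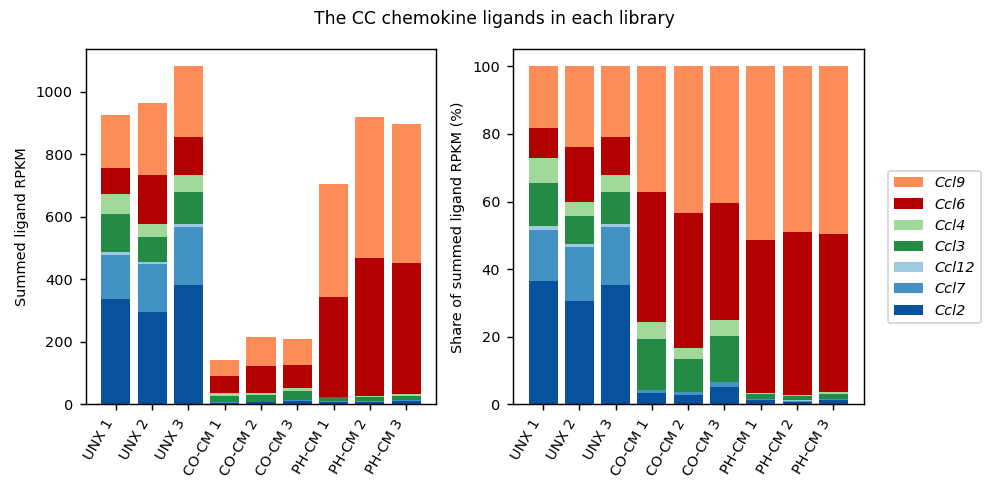
RPKM of the 7 ligand transcripts in each library, stacked as levels on the left and as percent of their sum on the right. The sum is lowest in the CO-CM libraries, at 142 to 215, and Ccl6 with Ccl9 make up over 96% of it in each PH-CM library.

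Ordered by RPKM, UNX cells had Ccl2 first (337 ± 42.9, SD, n = 3), above Ccl9 (208 ± 33.9) in every library. Ccl9, Ccl7 (160 ± 23.1), Ccl6 (120 ± 36.5) and Ccl3 (101 ± 19.6) followed, each overlapping the next. In CO-CM Ccl9 (77.2 ± 21.3) and Ccl6 (71.2 ± 15.7) came first and overlapped, then Ccl3 (23.8 ± 4.11), with Ccr1, Ccl4 and Ccl2 overlapping in turn below it. In PH-CM Ccl9 (420 ± 49.8) and Ccl6 (393 ± 66.0) overlapped and the receptor Ccr1 (45.6 ± 5.40) came next, above Ccl3 (12.8 ± 1.58). Ccr2 stayed near 1 RPKM, at 0.922 ± 0.126 in UNX, 1.19 ± 0.32 in CO-CM and 1.12 ± 0.39 in PH-CM. The RPKM ratio of Ccr1 to Ccr2 was 17.8 ± 3.61 in UNX, 8.80 ± 1.11 in CO-CM and 43.1 ± 10.2 in PH-CM.

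Other CC and atypical receptor genes that passed the filter included Ccr3 and Ccrl2. Ccr3, the eotaxin receptor and a gene between Ccr1 and Ccr2, was at 7.33 CPM on average in UNX, 1.96 in CO-CM and 1.19 in PH-CM. It fell by 1.90 on the log2 scale with CO-CM (edgeR FDR = 2.86e-05), fell by 2.63 with PH-CM (edgeR FDR = 3.03e-06), and was lower with PH-CM than with CO-CM (log2 -0.72, edgeR FDR = 0.042). Ccrl2, an atypical receptor that binds chemerin and does not signal, rose 5.47-fold with CO-CM (log2 2.45 ± 0.16, edgeR FDR = 3.14e-07) and 5.70-fold with PH-CM (log2 2.51 ± 0.16, edgeR FDR = 1.81e-07). The media differed by 0.06 for Ccrl2 (95% interval -0.25 to 0.37, edgeR FDR = 0.773). Thus neighbouring receptor genes on chromosome 9 took different directions, with Ccr1 up, Ccr3 down and Ccr2 within its replicate spread in PH-CM.

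**Figure D4:**
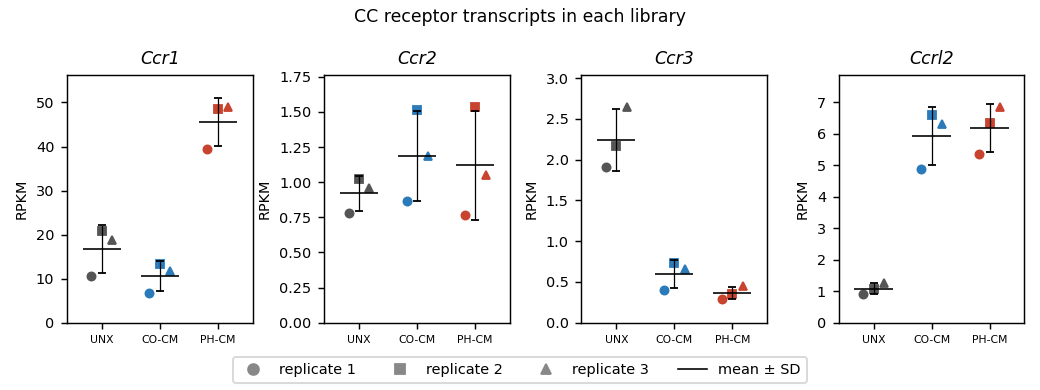
RPKM of the 2 receptor genes and of Ccr3 and Ccrl2 in each library, with the mean and SD of 3 libraries. Ccr1 is highest in PH-CM, Ccr3 highest in UNX and Ccrl2 higher with both media, while Ccr2 overlaps across the groups; replicate 1 is the lowest point of each group in every panel.

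Of 16 other CC ligand genes, 15 did not pass the filter, the largest of them Ccl27a with 368 reads over all 9 libraries. Ccl25, a thymic and intestinal chemokine, passed at a low level, 3.94 CPM on average in UNX, 4.96 in CO-CM and 6.12 in PH-CM. It was called higher with PH-CM than in UNX (log2 0.64 ± 0.15, edgeR FDR = 0.0026), with CO-CM between them (log2 0.34, edgeR FDR = 0.0653).

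Downstream of the receptors, all 28 listed genes of chemokine receptor signaling (G protein subunits, PI3K gamma, Rac and its exchange factors, arrestins, receptor kinases and RGS proteins) passed the filter. With CO-CM 7 were called higher and 6 lower (25% and 21.4%, beside 28.0% and 28.9% of all genes), and with PH-CM 10 higher and 7 lower (35.7% and 25%, beside 31.3% and 31.7%). Between the media 6 were higher and 5 lower with PH-CM (21.4% and 17.9%, beside 12.2% and 15.0%). Their median log2 fold changes were -0.04, -0.10 and 0.02. The largest positive difference of PH-CM from CO-CM was 0.69 for Arrb2, beta-arrestin 2 that uncouples and internalises receptors (edgeR FDR = 1.13e-05). Next was Gng2, a G protein gamma subunit, at 0.63 (edgeR FDR = 3.6e-05). Rgs2, which speeds the shut-off of G proteins, was lower by 0.45 (edgeR FDR = 0.00446) and the tyrosine kinase gene Ptk2b by 0.41 (edgeR FDR = 0.000589). All these differences were smaller in size than those of any member called between the media. Against UNX, Arrb2 changed by -0.60 with CO-CM (edgeR FDR = 6.81e-06) and 0.09 with PH-CM (edgeR FDR = 0.183). Rgs2 changed by 0.36 with CO-CM (edgeR FDR = 0.00692) and -0.09 with PH-CM (edgeR FDR = 0.418). Gng2 and Ptk2b were called against UNX with PH-CM, at 0.59 and -0.57, and not with CO-CM.

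Over the 9 libraries the log2 CPM of the members correlated in 2 sets, a description that mostly restates the 3 group means. Pearson's r was 0.998 for Ccl2 with Ccl7 and 0.997 for Ccl3 with Ccl4, and 0.931 for Ccl2 with Ccl3. It was 0.989 for Ccl6 with Ccr1 and 0.941 for Ccl9 with Ccr1. The genes outside the members most like Ccl2 were Net1, Gnb1, Osgin2, Ube2e3 and E2f1, each with r of 0.997 or more. Ccl3 was most like Ubtf, Cdc123, Slc1a5, Mrps23 and Drg1, with r from 0.996 to 0.997. Those of Ccr2 (Fbxo21, Selenbp1, Cd52, Stk24 and Gbp9) reached 0.902 to 0.954, over libraries whose groups overlapped in Ccr2. In size the likenesses were unequal: Net1, a guanine nucleotide exchange factor, went from 17.2 ± 0.80 CPM (SD, n = 3) in UNX to 5.96 ± 0.76 in CO-CM, a smaller fall than that of Ccl2.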

How the data were processed

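Total RNA of BMDMs was made into NuGen mRNA libraries and sequenced as read pairs. The authors aligned reads to GRCm38 with STAR, and the deposited counts are reads per gene from featureCounts 1.6.2. The deposited RPKM values were made by the authors in edgeR (3.14 with R 3.4.3 in the submitters' processing notes) and were used here only to recover exon lengths. Of counts under 20, 81.4 to 83.8% per library were even, and the listed counting options name none for read pairs or strand, so mates may have been counted one by one and the effective depth may be nearer to the number of pairs. Deposited tables of the authors' comparisons (log2 fold changes, mean log2 CPM, p-values and FDR) were not used.

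Groups and replicate numbers came from the sample titles. The study's methods describe the replicates as repeats of the experiment with pooled media, so p-values measure the spread between repeats and not between fibroblast donors. Genes with CPM above 1 in at least 3 libraries entered edgeR 4.0.16 (R 4.3.3) with TMM factors and the quasi-likelihood test, 1 fit of all 9 libraries with a mean per group. Calls needed an FDR no higher than 0.05 with a fold change of 1.2 or more. CPM used TMM library sizes, and RPKM divided CPM by the exon length. Gene names matched for 53274 identifiers.

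Deviations from the group means correlated at 0.276 to 0.484 between libraries of the same number in the 9 pairs, so the numbers pair the libraries. Between different numbers they correlated at -0.376 to 0.042. Because the deviations within a group cancel out for each gene, this second range follows in part from the first. The fit with the number as a block was an alternative, beside DESeq2 1.42.0, other scalings, filters and fold thresholds, halved counts and leaving out each library. The members and lists were chosen with earlier results of these data known. Named beside the members were the genes of the 2 CC lists that passed the filter (1 is not reported here), of the signaling list the 2 largest rises and 2 largest falls called between the media, and for Ccl2, Ccl3 and Ccr2 the 5 genes with the highest correlation.

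Coordinates and coding windows came from GENCODE M21 (GRCm38), and promoters from RefSeq (GRCm38.p6), which matched 6 of the 9 genes. The intervals of the Ccl12 read ratios and the floors cover counting error only. The intervals of log2 fold changes come from the edgeR fit and include the spread between replicates.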

Additional observations from a re-analysis of the deposited data

Results flagged for a closer look

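For 3 genes the effect against UNX differed between the media in the fit that tests the difference itself, and its sign was opposite. Between PH-CM and CO-CM the log2 difference was 2.47 for Ccl6 (edgeR FDR = 2.51e-05, n = 3 per group), 2.44 for Ccl9 (edgeR FDR = 9.58e-06) and 2.11 for Ccr1 (edgeR FDR = 0.000197). PH-CM was higher in 3 of 3 pairs of the same replicate number for each. Against UNX, the CO-CM side was -0.76 for Ccl6, -1.43 for Ccl9 and -0.66 for Ccr1, and the last of these lost its call in 10 of 19 alternatives. These comparisons share libraries, and what underlies the opposite signs was not tested.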

How the results depend on the processing

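Each fold change was recomputed under up to 19 alternatives (fewer for Ccl12, which leaves the filter without any UNX library). Of the gene values, 482 kept their direction and side of the threshold, 8 passed it, 10 lost it and 3 changed sign. All 10 losses were Ccr1 in CO-CM against UNX, where the log2 fold change ranged from -0.92 to -0.42. Ccr2 ranged from -0.014 to 0.49 in PH-CM against UNX, negative without PH-CM replicate 2, and from -0.38 to 0.13 in PH-CM against CO-CM, positive without CO-CM replicate 2 (0.12) or PH-CM replicate 1 (0.13), never past the threshold. Leaving out each library, 6 to 8 members were called for CO-CM against UNX, 7 to 8 for PH-CM against UNX and 5 to 8 for PH-CM against CO-CM, the 8 without CO-CM replicate 3. Ccl12 in PH-CM against CO-CM was also called by the edgeR exact test (FDR = 0.04), DESeq2 (adjusted p = 0.0315) and with no filter (FDR = 0.045).

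With the replicate block 9, 8 and 6 members were called, the additions being Ccr2 (CO-CM against UNX) and Ccl7 (PH-CM against CO-CM), and 7037, 7714 and 3632 of all genes; no other member's call changed. Without the block, 6806, 7534 and 3244 genes were called, and 1655, 2153 and 612 at a fold change of at least 2, since fewer pass by construction. No scaling moved the median of all genes by 0.1 on the log2 scale. Depth limits Ccl12 in both media, at 8 reads or fewer per library.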
